A study of Mus musculus with 9 samples.

Results

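The transcripts examined here belong to 46 genes of mitosis, the G2-M transition and the brake on cell division, taken from the 47643 rows of the count matrix by gene symbol. The list holds 39 mitotic and G2-M genes, 3 D cyclins and 4 CDK inhibitors. Of the 46, 45 had a median above 1 CPM (counts scaled to the size of the library) over the 9 libraries and were tested among 11560 genes. Ccnd1, cyclin D1, was not tested because it had 70 counts in all libraries together. RNA came from bone marrow-derived mast cells (BMMCs), which are primary mast cells grown from the marrow of C57BL/6 mice in medium conditioned by WEHI-3 cells. The 9 libraries fell into 3 groups of equal size. Control cells were left untreated, IgE+BSA cells received IgE against DNP and the antigen DNP-BSA, and IgE+BSA+Luteolin cells received that stimulus together with the flavonoid luteolin. The labels give luteolin at 10 μM for 24 h, and no time for the Control or IgE+BSA libraries. The order of luteolin and stimulus for these libraries is not clear from the sources. No group received luteolin alone or IgE alone, and nothing states that replicates came from separate mice or cultures, so p-values measure the spread between these libraries, which may be technical.

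Cells enter mitosis when cyclins A and B activate CDK1, after CDC25 phosphatases remove the phosphates that WEE1 placed on it. Chromosomes are then attached to the spindle by kinetochores, the spindle checkpoint holds back the anaphase-promoting complex (APC/C) until attachment is complete, and APC/C with CDC20 destroys cyclin B and securin so that sister chromatids separate. Earlier, D cyclins with CDK4 or CDK6 carry cells through G1, where p21 and p27 (CIP/KIP inhibitors) and the INK4 inhibitors restrain the CDKs. BMMCs in culture divide in response to interleukin-3, and crosslinking of their IgE receptor induces immediate early genes and cytokines.

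Many genes that peak in G2 and M carry a CHR element (cell cycle genes homology region) near their start together with CCAAT boxes, which are bound by NF-Y. The proximal promoters of 8 members are shown because the results below turn on these genes. Sequences are RefSeq promoters of GRCm38.p6, printed from 120 bases before to 30 bases after the annotated start, with capitals marking each CHR match (TTTGAA or TTTAAA or TTCGAA or CTTGAA, both strands) and each CCAAT match (both strands, so that ATTGG is the same box read on the other strand). Matches of different motifs may overlap. The cyclin B genes, Cdk1 and Cdc20, the APC/C activator, lie at chr13:100786457-100786606 (minus strand), chr9:70421525-70421674 (minus strand), chr10:69352883-69353032 (minus strand) and chr4:118437314-118437463 (minus strand).
Ccnb1: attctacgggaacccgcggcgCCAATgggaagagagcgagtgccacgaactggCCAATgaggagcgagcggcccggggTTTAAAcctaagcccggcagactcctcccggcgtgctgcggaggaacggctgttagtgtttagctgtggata
Ccnb2: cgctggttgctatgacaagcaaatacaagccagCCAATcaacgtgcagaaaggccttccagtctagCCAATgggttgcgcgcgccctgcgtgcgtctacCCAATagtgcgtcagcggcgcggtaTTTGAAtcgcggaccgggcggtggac
Cdk1: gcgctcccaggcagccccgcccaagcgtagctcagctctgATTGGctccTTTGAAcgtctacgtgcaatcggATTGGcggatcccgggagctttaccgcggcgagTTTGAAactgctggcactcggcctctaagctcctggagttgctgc
Cdc20: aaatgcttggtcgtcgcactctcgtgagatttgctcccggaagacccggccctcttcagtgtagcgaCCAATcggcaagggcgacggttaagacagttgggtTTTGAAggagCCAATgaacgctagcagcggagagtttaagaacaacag
In this window Ccnb2 held 3 CCAAT boxes whose starts were 33 bases apart, and the starts of the 2 boxes of Ccnb1 were 32 bases apart. Ube2c, the ubiquitin-conjugating enzyme of APC/C, and Cenpa, the histone H3 variant of centromeres, lie at chr2:164769809-164769958 (plus strand) and chr5:30666766-30666915 (plus strand).
Ube2c: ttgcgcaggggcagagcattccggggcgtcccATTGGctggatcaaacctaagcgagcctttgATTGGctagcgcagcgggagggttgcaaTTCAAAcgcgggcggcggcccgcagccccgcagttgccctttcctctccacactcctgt
Cenpa: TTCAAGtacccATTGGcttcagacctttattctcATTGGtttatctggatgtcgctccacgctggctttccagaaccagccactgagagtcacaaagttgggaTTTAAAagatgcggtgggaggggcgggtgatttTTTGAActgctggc
The inhibitor genes Cdkn1b (p27) and Cdkn1a (p21, the downstream of 2 listed starts) lie at chr6:134920281-134920430 (plus strand) and chr17:29093649-29093798 (plus strand).
Cdkn1b: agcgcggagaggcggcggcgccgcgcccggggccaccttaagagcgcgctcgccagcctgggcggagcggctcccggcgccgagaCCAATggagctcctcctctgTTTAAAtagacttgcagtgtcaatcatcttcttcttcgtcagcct
Cdkn1a: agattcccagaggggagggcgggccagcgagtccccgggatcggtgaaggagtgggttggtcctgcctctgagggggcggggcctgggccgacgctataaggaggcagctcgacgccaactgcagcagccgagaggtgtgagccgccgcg
The Cdkn1b window held 1 CHR match and 1 CCAAT box, and the Cdkn1a window held 0 of either. Of the 46 members, 37 matched the table, with 42 promoters of 300 bases each. Over the full promoters, a CHR match was present in 30 of 34 mitotic promoters (88.2%), against 37.3% of all 32851 promoters in the table, and at least 2 CCAAT boxes were present in 17 of 34 (50.0%), against 11.7%. A CHR match together with at least 2 CCAAT boxes was found in 17 mitotic promoters (50.0%) and in 4.23% of all promoters. Among the 8 promoters of D cyclins and CDK inhibitors, 1 held a CHR match and 1 held at least 2 CCAAT boxes, and both were in the Cdkn1b promoter. E2F sites (TTTCCCGC or TTTGGCGC or TTTCGCGC or TTTGCCGC, both strands) were found in 1 of 34 mitotic promoters, that of Cdk1, against 2.26% of all promoters. Among promoters of the genes tested here, 28.4% held a CHR match and 14.4% at least 2 CCAAT boxes. Both together were found in 4.14% of these promoters, and an E2F site in 4.10%. These matches describe letters in a fixed window and were not tested.

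The libraries held 9515004 to 24605689 counts, and 3 counts were worth 0.12 to 0.29 CPM, a floor that covers counting error only. CPM values here are scaled by TMM factors from edgeR. All 13 mast cell markers examined were above 1 CPM in each group, with summed levels of 59898 to 89973 CPM in Control, 64951 to 71910 CPM in IgE+BSA and 76463 to 88087 CPM in IgE+BSA+Luteolin. The highest of these sums was that of Control replicate 1, and the other Control libraries were at 60084 and 59898 CPM. The lymphocyte markers Cd3e, Cd8a and Ms4a1 and the dendritic cell marker Siglech had 0 counts in every library. Of the other lymphocyte markers, Ncr1 was at 1.94 to 3.31 CPM, and the 4 dendritic cell markers summed to at most 0.21 CPM. The 3 basophil markers summed to 1655 to 1882 CPM in Control, 1449 to 1507 CPM in IgE+BSA and 1612 to 1758 CPM in IgE+BSA+Luteolin, and the 9 macrophage or monocyte markers to 378 to 382, 394 to 425 and 395 to 437 CPM in the same order, led by Adgre1 at 203 to 260 CPM. The erythroid or megakaryocyte and the stromal lists were carried by 1 gene each, Itga2b at 1733 to 2174 CPM and Pecam1 at 376 to 524 CPM. In Control replicates 1, 2 and 3 the sums were 2186, 1820 and 1847 CPM for the former list, 468, 376 and 384 CPM for the latter and 1882, 1721 and 1655 CPM for the basophil markers. The part of these markers in the differences was not tested. Control replicate 1 stood apart from Control replicates 2 and 3. The 9 neutrophil and progenitor markers examined summed to 279 CPM in Control replicate 1 but to 9.80 and 8.51 CPM in Control replicates 2 and 3, while they summed to 199.7 to 219 CPM in IgE+BSA and to 230.3 to 268 CPM in IgE+BSA+Luteolin. The 3 eosinophil markers summed to 37.4 CPM in Control replicate 1, to 13.00 and 10.1 CPM in Control replicates 2 and 3, and to 21.7 to 29.1 CPM in the stimulated libraries. The ratio of the highest to the lowest Control library had a median of 1.31 over the 39 mitotic genes, against 1.11 in IgE+BSA and 1.098 in IgE+BSA+Luteolin. Control replicate 1 was the highest or lowest of the 9 libraries in 53.3% of the members tested and in 42.1% of all genes tested. For Control replicates 2 and 3 these shares were 24.4% and 35.6% of the members, and 31.7% and 33.1% of all genes. The counts of calls against Control are therefore given with the 3 Control libraries, without replicate 1, and with replicate 1 as the only Control (a choice made after seeing the data, in which the lone library is assumed to vary like the other group). In bulk RNA, fewer cells of a type and less RNA per cell cannot be told apart.

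**Figure D1:**
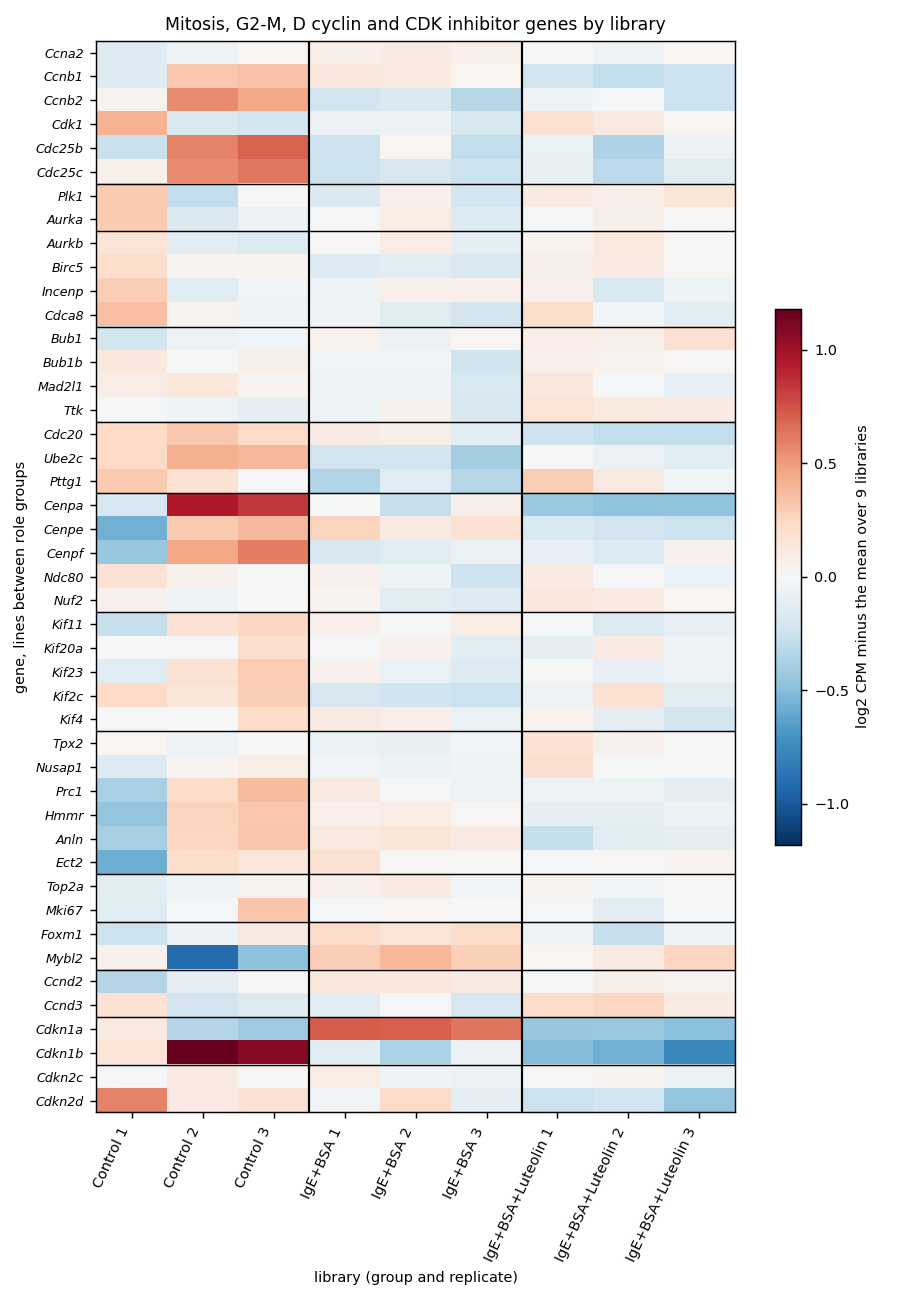
Log2 CPM of the 45 members tested, minus each gene's mean over the 9 libraries, with libraries in columns and genes in rows, and lines between role groups. The 3 IgE+BSA columns stand out in Cdkn1a, Control replicates 2 and 3 differ from Control replicate 1 in Cenpa, Cenpf and Cdkn1b, and most mitotic rows stay near 0 in the stimulated libraries.

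**Figure D2:**
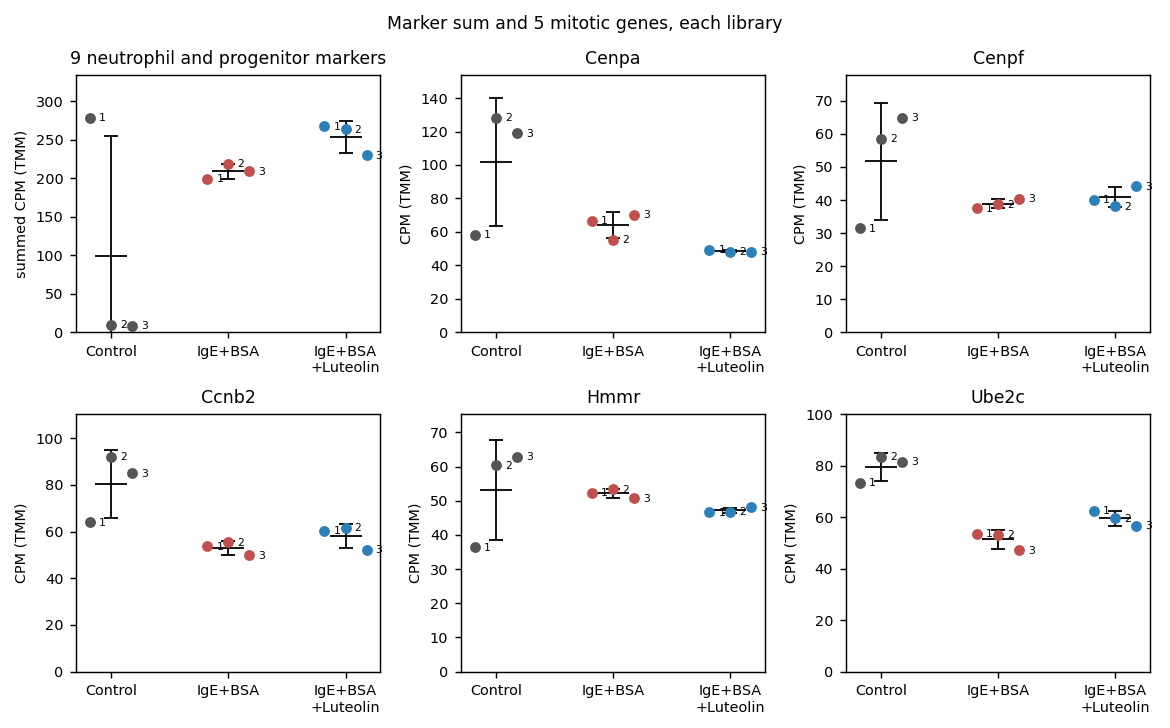
CPM by group for the summed neutrophil and progenitor markers and for Cenpa, Cenpf, Ccnb2, Hmmr and Ube2c. Numbered points are replicates, and bars are the mean and SD of 3 libraries. Control replicates 2 and 3 lie near 0 for the marker sum and above Control replicate 1 for each of the 5 mitotic genes. These 5 do not stand for all mitotic genes. Over the 39 mitotic genes, Control replicate 1 was the highest of the 9 libraries in 10 and the lowest in 12.

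CDK inhibitors held the largest movement among the members. Cdkn1a, which encodes p21, was at 848, 621 and 586 CPM in Control, 1289, 1281 and 1222 CPM in IgE+BSA and 578, 582 and 559 CPM in IgE+BSA+Luteolin. Every IgE+BSA library was above every Control library, and every luteolin library was below every library of the other groups. Its mean was 685 ± 142 CPM, 1264 ± 36.95 CPM and 573 ± 12.2 CPM in the same order (SD, n = 3). Against Control, Cdkn1a rose in IgE+BSA, with a log2 fold change of 0.88 ± 0.163 (SE), edgeR adjusted p = 0.0364. Against IgE+BSA it fell with luteolin, with a log2 fold change of -1.14 ± 0.0518 (SE), edgeR adjusted p = 1.24e-11, which is 0.454 of the stimulated level. Against Control, the luteolin libraries gave -0.26 ± 0.149 (SE), edgeR adjusted p = 0.329, which did not pass the test. The fall with luteolin passed the test in all 18 alternatives, with log2 fold changes from -1.16 to -1.03 and adjusted p of at most 0.000381. The rise with IgE+BSA kept its direction in 19 alternatives (0.56 to 1.02) but lost its call in 6, which comprise the replicate block and the omission of any library other than Control replicate 1 (highest adjusted p 0.2). Without Control replicate 1 the rise was 1.02, edgeR adjusted p = 7.43e-08, and with it as the only Control 0.56, edgeR adjusted p = 0.00028. For luteolin against Control, the log2 fold change of Cdkn1a was -0.08, edgeR adjusted p = 0.283 without replicate 1 and -0.57, edgeR adjusted p = 5.46e-05 with replicate 1 as the only Control, so that the call below Control was made with that library alone.

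Cdkn1b, which encodes p27, was at 63.2, 128 and 119 CPM in Control, 51.04, 43.6 and 53.9 CPM in IgE+BSA and 39.6, 38.04 and 33.4 CPM in IgE+BSA+Luteolin. The 3 groups did not overlap, and the order was Control, IgE+BSA, IgE+BSA+Luteolin from high to low, with Control replicate 1 far below the other Control libraries. The log2 fold change was -0.42 ± 0.0885 (SE), edgeR adjusted p = 0.00147 for luteolin against IgE+BSA and -1.48 ± 0.261 (SE), edgeR adjusted p = 0.0352 for luteolin against Control. For IgE+BSA against Control it was -1.06 ± 0.251 (SE), edgeR adjusted p = 0.0754, which did not pass the test. That difference was -1.36, edgeR adjusted p = 2.89e-08 without Control replicate 1, and -0.37, edgeR adjusted p = 0.0193 with replicate 1 as the only Control. Leaving out any other library of the luteolin and Control groups removed the call against Control (adjusted p from 0.129 to 0.186), while the log2 fold change stayed between -1.54 and -1.30. Over all alternatives of the 3 comparisons, the sign of the Cdkn1b difference was negative.

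Cdkn2d, which encodes the INK4 inhibitor p19, was at 64.5, 45.99 and 48.4 CPM in Control, 41.9, 50.4 and 39.9 CPM in IgE+BSA and 36.04, 36.9 and 31.1 CPM in IgE+BSA+Luteolin. Luteolin libraries were below every other library, and it fell with luteolin against IgE+BSA, with a log2 fold change of -0.34 ± 0.0948 (SE), edgeR adjusted p = 0.00929. Against Control, IgE+BSA gave -0.27, edgeR adjusted p = 0.432 and luteolin -0.62, edgeR adjusted p = 0.0839. Leaving out Control replicate 1, these differences were -0.15, edgeR adjusted p = 0.239 and -0.46, edgeR adjusted p = 0.000461. With replicate 1 as the only Control they were -0.57, edgeR adjusted p = 0.00277 and -0.90, edgeR adjusted p = 4.19e-05. Cdkn2c, which encodes the INK4 inhibitor p18, was at 25.5, 27.9 and 26.1 CPM in Control, 27.5, 25.04 and 24.8 CPM in IgE+BSA and 25.4, 26.6 and 24.6 CPM in IgE+BSA+Luteolin. Its 9 libraries lay within 24.6 to 27.9 CPM, and 95% intervals of its log2 fold change were -0.30 to 0.22, -0.19 to 0.17 and -0.31 to 0.20 for IgE+BSA against Control, luteolin against IgE+BSA and luteolin against Control. Per 1000 bases of exon, Cdkn1a had the highest mean level of the 46 members (236.6 CPM), followed by Top2a (55.1 CPM) and Ccnb2 (41.7 CPM), and Cdkn2d was at 27.9 CPM.

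**Figure D3:**
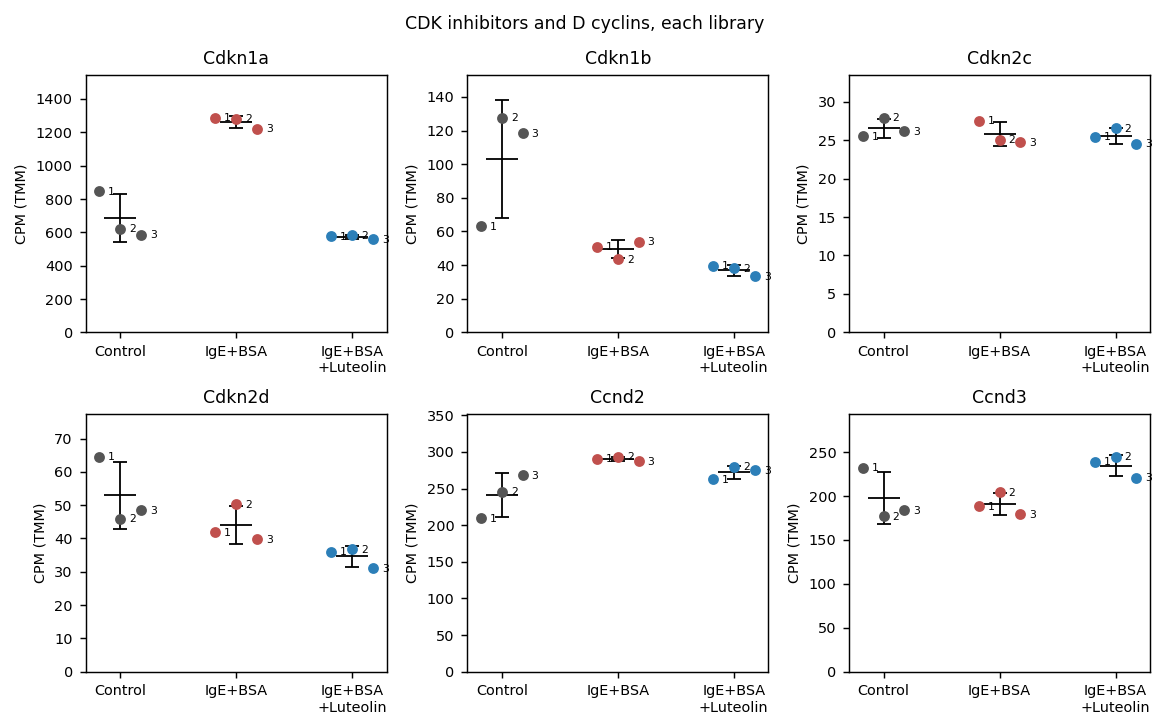
CPM of 4 CDK inhibitors and 2 D cyclins by group. Numbered points are replicates, and bars are the mean and SD of 3 libraries. Cdkn1a rises in IgE+BSA and is lowest with luteolin, Cdkn1b steps down over the groups, and Cdkn2c stays between 24.6 and 27.9 CPM.

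The D cyclins were Ccnd2 and Ccnd3 in these cells, with almost no Ccnd1. Ccnd1 was at 0.292, 0.194 and 0.248 CPM in Control, 0.181, 0.451 and 0.635 CPM in IgE+BSA and 0.327, 0.892 and 0.048 CPM in IgE+BSA+Luteolin. These values are near the floor of 3 counts, and 23.4% of its exon bases overlap LTO1 on the opposite strand. Ccnd2 was at 209.6, 245 and 268 CPM in Control, 291, 293 and 287 CPM in IgE+BSA and 262, 280.0 and 275 CPM in IgE+BSA+Luteolin. IgE+BSA libraries were above those of both other groups, but the log2 fold change was 0.27, edgeR adjusted p = 0.243 against Control and -0.09, edgeR adjusted p = 0.185 for luteolin against IgE+BSA. With Control replicate 1 as the only Control the difference for IgE+BSA was 0.45, edgeR adjusted p = 0.000866, and without it 0.13, edgeR adjusted p = 0.141. For luteolin against Control, Ccnd2 gave 0.17, edgeR adjusted p = 0.408 with the 3 Control libraries, 0.07, edgeR adjusted p = 0.37 without replicate 1 and 0.38, edgeR adjusted p = 0.00404 with replicate 1 alone. Ccnd3 was at 232, 177 and 184 CPM in Control, 188, 205 and 179.5 CPM in IgE+BSA and 239, 245 and 221 CPM in IgE+BSA+Luteolin. It rose with luteolin against IgE+BSA, with a log2 fold change of 0.30 ± 0.0627 (SE), edgeR adjusted p = 0.0012, and the libraries of those groups did not overlap. For luteolin against Control, Ccnd3 gave 0.24, edgeR adjusted p = 0.293 with the 3 Control libraries, 0.37, edgeR adjusted p = 0.000269 without replicate 1 and 0.02, edgeR adjusted p = 0.913 with replicate 1 alone. For IgE+BSA against Control, the values in the same order were -0.06, edgeR adjusted p = 0.874, 0.03, edgeR adjusted p = 0.769 and -0.30, edgeR adjusted p = 0.0165. Per exon length, Ccnd2 made up 45.7% to 59.7% of the D cyclin total and Ccnd3 made up 40.0% to 54.2%, and Ccnd3 had its highest share in Control replicate 1.

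In the comparison of IgE+BSA+Luteolin with IgE+BSA, the mitotic genes gave small differences in both directions, while Cdkn1a, described above, fell by more. At an adjusted p under 0.05, 7 of the 45 members tested were higher and 9 were lower, or 16 in all, against 18.1% higher, 21.9% lower and 40.0% in either direction among all genes tested. Among the 39 mitotic and G2-M genes, 6 rose (Cdk1, Plk1, Birc5, Ube2c, Pttg1 and Kif2c) and 6 fell (Ccnb1, Cdc20, Cenpa, Cenpe, Anln and Foxm1), and 27 did not pass the test. The calls of the rises depended on single libraries. Without luteolin replicate 1 the only mitotic gene called higher was Pttg1, without luteolin replicate 2 there were 2 (Cdk1 and Pttg1) and without IgE+BSA replicate 3 there were 2 (Birc5 and Pttg1), while in each of these fits 6 were lower. In these 3 fits the shares over all genes were 10.5% higher and 17.6% lower, 10.7% and 17.7%, and 12.6% and 18.5%. Over the 6 fits that left out a library, 1 to 9 mitotic genes were called higher and 5 to 7 lower, beside 10.5% to 19.9% and 17.6% to 24.0% of all genes. Their median log2 fold change was 0.05, beside 0.02 over all genes tested. The libraries of both groups did not overlap in 28 members, against 50.3% of all genes tested. For 38 of the 39 mitotic genes the 95% interval of the difference lay within 1.5-fold in either direction, and the exception was Pttg1. The scaling moved the balance of directions over all genes, and that of the members with it. With upper-quartile factors 16 members were higher and 9 lower, beside 28.3% and 17.5% of all genes. With library size alone 17 were higher and 6 lower, beside 33.4% and 15.3%, and with a correction for gene length 18 and 8, beside 30.1% and 15.3%, while the median of all genes moved from 0.02 to 0.09, 0.13 and 0.11. Bub1, Bub1b, Mad2l1, Ttk, Cdca8, Nuf2, Nusap1 and Tpx2 passed the test as higher in each of these fits. Relative to that median, the mitotic genes stood at 0.03 in each of these fits. With all 9 libraries in one fit, which takes the spread of Control into the error, 1 member was called (Cdkn1a).

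**Figure D4:**
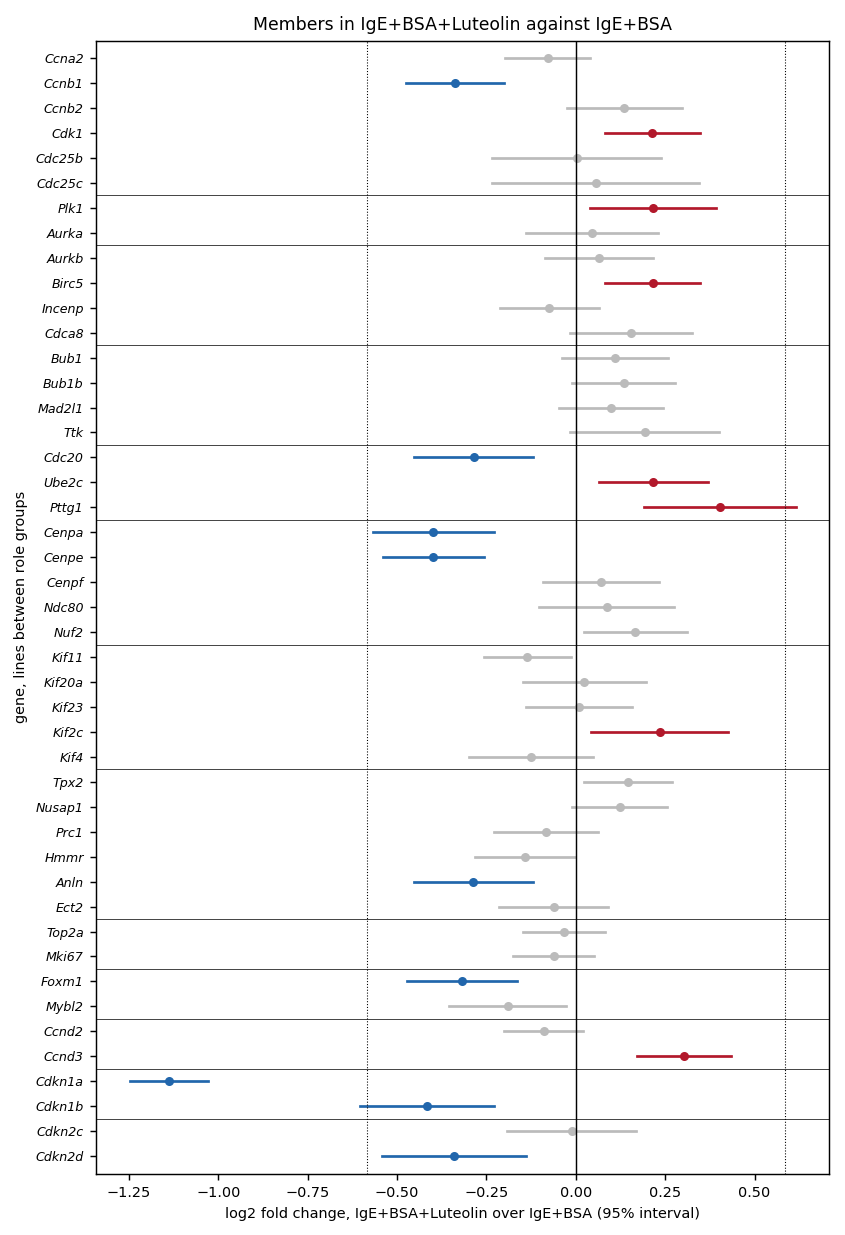
Log2 fold change of IgE+BSA+Luteolin over IgE+BSA for the 45 members tested, with 95% intervals. Red and blue mark genes with an adjusted p under 0.05 that were higher or lower, grey marks the others, and dotted lines mark 1.5-fold. Cdkn1a lies far from the rest, and 42 of the 45 intervals lie within the dotted lines.

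Among the cyclins and CDK1, whose complex drives mitotic entry, the directions differed. Ccnb1, cyclin B1, was at 56.4, 78.1 and 79.1 CPM in Control, 68.3, 67.7 and 63.8 CPM in IgE+BSA and 53.9, 51.1 and 52.7 CPM in IgE+BSA+Luteolin. It fell with luteolin against IgE+BSA (log2 fold change -0.34, edgeR adjusted p = 0.000586), and luteolin libraries were below all others. Ccnb2, cyclin B2, had the highest level per exon length in this group and was at 64.1, 91.98 and 85.1 CPM in Control, 53.7, 55.4 and 49.8 CPM in IgE+BSA and 60.3, 61.6 and 52.2 CPM in IgE+BSA+Luteolin. It gave 0.14, edgeR adjusted p = 0.167 for luteolin against IgE+BSA. Both stimulated groups were below the 3 Control libraries, but neither difference passed the test. For IgE+BSA and luteolin against Control, the log2 fold changes were -0.78 and -0.61 without Control replicate 1. With replicate 1 as the only Control they were -0.29 and -0.14. Cdk1 was at 129, 86.4 and 83.00 CPM in Control, 92.4, 92.8 and 85.4 CPM in IgE+BSA and 110.2, 104 and 98.7 CPM in IgE+BSA+Luteolin. It rose with luteolin (0.21, edgeR adjusted p = 0.0121), while Control replicate 1 was the highest and Control replicate 3 the lowest of the 9 libraries. Ccna2, cyclin A2, ranged from 85.0 to 101 CPM, and Cdc25b and Cdc25c, phosphatases that activate CDK1, ranged from 17.2 to 35.8 CPM and from 7.74 to 14.8 CPM, and none of the 3 passed the test in luteolin against IgE+BSA. In Cdc25b and Cdc25c the high values were those of Control replicates 2 and 3.

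Among the mitotic kinases and the chromosomal passenger complex, which corrects kinetochore attachment, 2 of 6 genes rose with luteolin against IgE+BSA and 4 did not pass the test. Plk1, a kinase of mitotic entry and spindle assembly, was at 48.1, 31.7 and 38.6 CPM in Control, 34.3, 40.4 and 33.1 CPM in IgE+BSA and 41.6, 40.6 and 42.8 CPM in IgE+BSA+Luteolin. Its difference with luteolin was near the threshold (0.22, edgeR adjusted p = 0.0487) and was lost in 8 of 18 alternatives. Birc5, survivin, was at 71.3, 62.97 and 62.9 CPM in Control, 55.6, 56.5 and 54.5 CPM in IgE+BSA and 64.9, 65.8 and 62.2 CPM in IgE+BSA+Luteolin. It rose with luteolin against IgE+BSA (0.21, edgeR adjusted p = 0.0126), and its luteolin libraries overlapped Control, which IgE+BSA libraries did not. Incenp, the scaffold of the complex, had its highest level per exon length and was at 147, 109 and 117 CPM in Control, 116, 125 and 125 CPM in IgE+BSA and 125, 106 and 116 CPM in IgE+BSA+Luteolin. Its groups overlapped in each comparison. Aurka, which organises the spindle poles, and Aurkb and Cdca8, the kinase and the borealin subunit of the complex, did not pass the test with luteolin by edgeR with TMM factors (0.05, 0.06 and 0.15 on the log2 scale).

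The spindle checkpoint genes Bub1, Bub1b, Mad2l1 and Ttk gave 0 calls of 4 by edgeR with TMM factors between stimulated groups, with log2 fold changes of 0.10 to 0.19, and 0 of 4 in each comparison with the 3 Control libraries. The counts at an unadjusted p under 0.05 and by DESeq2 were also 0. Between stimulated groups the shares over all genes were 40.0% by edgeR, 49.2% at an unadjusted p under 0.05 and 38.3% by DESeq2. For IgE+BSA and luteolin against Control they were 3.27% and 3.04%, 20.4% and 22.9%, and 10.6% and 11.9% in the same order. However, between stimulated groups all 4 were called higher with upper-quartile factors, with library size alone and with the correction for gene length. These settings called 28.3%, 33.4% and 30.1% of all genes higher, and also moved the median of all genes up. Relative to that median their log2 fold changes were 0.08 to 0.18 with TMM factors and 0.07 to 0.18 over the other 3 scalings. Mad2l1 was lower in IgE+BSA than in Control without replicate 1 (-0.21, edgeR adjusted p = 0.0313), and Bub1 was higher in luteolin than in Control replicate 1 alone (0.33, edgeR adjusted p = 0.0413). Bub1b, which encodes the checkpoint kinase-like protein BUBR1, was at 73.7, 67.5 and 71.3 CPM in Control, 66.4, 66.1 and 57.7 CPM in IgE+BSA and 70.5, 69.6 and 68.3 CPM in IgE+BSA+Luteolin. Luteolin libraries were above IgE+BSA, with an edgeR adjusted p of 0.128. Downstream of the checkpoint, all 3 members of the APC/C group passed the test with luteolin, in different directions. Cdc20 was at 50.8, 53.7 and 50.5 CPM in Control, 46.2, 45.2 and 39.3 CPM in IgE+BSA and 36.5, 35.3 and 35.3 CPM in IgE+BSA+Luteolin. The groups did not overlap and stepped down from Control to IgE+BSA to luteolin, with log2 fold changes of -0.29, edgeR adjusted p = 0.00869 for luteolin against IgE+BSA and -0.54, edgeR adjusted p = 0.0387 for luteolin against Control. The former call was lost in 3 of 18 alternatives. The step from Control to IgE+BSA did not pass the test with the 3 Control libraries. It was -0.30, edgeR adjusted p = 0.0147 without Control replicate 1, and -0.24 with replicate 1 as the only Control. Ube2c was at 73.4, 83.4 and 81.5 CPM in Control, 53.6, 53.2 and 47.3 CPM in IgE+BSA and 62.5, 59.5 and 56.8 CPM in IgE+BSA+Luteolin. It was lowest in IgE+BSA, with log2 fold changes of -0.63, edgeR adjusted p = 0.0291 against Control and 0.22, edgeR adjusted p = 0.0241 for luteolin against IgE+BSA, and 22.8% of its exon bases overlap Tnnc2, which had 0 counts. Pttg1, securin, was at 31.3, 28.4 and 25.3 CPM in Control, 19.8, 22.9 and 19.98 CPM in IgE+BSA and 30.9, 27.2 and 24.7 CPM in IgE+BSA+Luteolin. It rose with luteolin against IgE+BSA by the most among the mitotic genes (log2 fold change 0.40 ± 0.101 (SE), edgeR adjusted p = 0.00466), and its luteolin libraries overlapped those of Control.

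At the centromere and kinetochore, 2 of 5 genes fell with luteolin. Cenpa was at 58.2, 128 and 119 CPM in Control, 66.8, 55.4 and 70.2 CPM in IgE+BSA and 49.4, 48.1 and 48.2 CPM in IgE+BSA+Luteolin. Luteolin libraries were below all others (-0.40, edgeR adjusted p = 0.000943 against IgE+BSA), and Control replicates 2 and 3 were above 119 CPM while Control replicate 1 was in the range of IgE+BSA. Cenpe, a kinesin-like motor that moves chromosomes to the spindle equator, was at 39.4, 72.3 and 75.98 CPM in Control, 70.2, 62.8 and 65.8 CPM in IgE+BSA and 51.5, 50.04 and 48.95 CPM in IgE+BSA+Luteolin. It fell with luteolin (-0.40, edgeR adjusted p = 0.000186), and Control replicate 1 was the lowest of the 9 libraries. Cenpf, Ndc80 and Nuf2, which also serve at the kinetochore, gave 0.07, 0.09 and 0.17 on the log2 scale and did not pass the test by edgeR with TMM factors.

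Of the 5 kinesins, which are motors of the spindle and midzone, 1 passed the test with luteolin. Kif2c, a microtubule depolymerase at centromeres, was at 36.4, 34.2 and 37.8 CPM in Control, 27.2, 26.3 and 25.9 CPM in IgE+BSA and 29.6, 35.1 and 28.4 CPM in IgE+BSA+Luteolin. IgE+BSA libraries were the lowest, and the rise with luteolin was at the threshold (0.23, edgeR adjusted p = 0.0497) and was lost in 11 of 18 alternatives. Kif11, the motor that separates spindle poles, had the highest level per exon length in this group and was at 108, 147 and 155 CPM in Control, 136, 131 and 139 CPM in IgE+BSA and 129, 117 and 122 CPM in IgE+BSA+Luteolin. It gave -0.14, edgeR adjusted p = 0.0702 for luteolin against IgE+BSA. Kif20a, Kif23 and Kif4 lay between 34.0 and 74.2 CPM in all libraries and did not pass the test between stimulated groups or against the 3 Control libraries. Without Control replicate 1, Kif23 was lower than Control in IgE+BSA (-0.35, edgeR adjusted p = 0.00301) and in luteolin (-0.31, edgeR adjusted p = 0.00297). Of the exon bases, 29.3% of those of Kif20a and 15.1% of those of Kif4 overlap a gene on the opposite strand.

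Among spindle and cytokinesis genes, 1 of 6 fell. Anln, anillin, which organises the contractile ring, was at 24.96, 39.01 and 41.00 CPM in Control, 35.1, 36.01 and 34.9 CPM in IgE+BSA and 26.9, 29.7 and 30.1 CPM in IgE+BSA+Luteolin. Luteolin libraries were below IgE+BSA (-0.29, edgeR adjusted p = 0.00828), and Control replicate 1 was lower still. The call was lost in 4 of 18 alternatives, over which the log2 fold change ranged from -0.32 to -0.10. Tpx2, the activator of Aurora A, was at 133, 125 and 131 CPM in Control, 123, 123 and 128 CPM in IgE+BSA and 147, 135 and 132 CPM in IgE+BSA+Luteolin. It gave 0.15, edgeR adjusted p = 0.0553 for luteolin against IgE+BSA. By edgeR with TMM factors, Nusap1, Prc1, Hmmr and Ect2 did not pass the test in any comparison with the 3 Control libraries or between stimulated groups. Against Control replicate 1 alone, Ect2 was higher in IgE+BSA (0.63, edgeR adjusted p = 0.001) and in luteolin (0.59, edgeR adjusted p = 0.00181), while without that library it gave -0.14, edgeR adjusted p = 0.191 and -0.17, edgeR adjusted p = 0.0859. Top2a, topoisomerase of mitotic chromosomes, was at 456, 480.2 and 508 CPM in Control, 518, 529 and 484 CPM in IgE+BSA and 509, 486 and 498 CPM in IgE+BSA+Luteolin. Its 3 groups overlapped. By edgeR with TMM factors, log2 fold changes were 0.08 for IgE+BSA against Control, -0.03 for luteolin against IgE+BSA and 0.04 for luteolin against Control. Its values under other scalings are not given here. Mki67, the proliferation marker Ki-67, ranged from 359 to 498 CPM, and in the 6 stimulated libraries from 361 to 401 CPM. For luteolin against IgE+BSA it gave -0.06, edgeR adjusted p = 0.379 with TMM factors. For luteolin against Control it was -0.23, edgeR adjusted p = 0.0258 without Control replicate 1, and 0.08 with replicate 1 as the only Control. Foxm1, a transcription factor of G2-M genes, was at 44.1, 50.2 and 56.8 CPM in Control, 61.3, 58.5 and 61.1 CPM in IgE+BSA and 50.3, 43.6 and 50.9 CPM in IgE+BSA+Luteolin. IgE+BSA libraries were above all others, and it fell with luteolin (-0.32, edgeR adjusted p = 0.0025). Mybl2, B-MYB, which acts with the MuvB complex at these promoters, was at 19.3 to 37.5 CPM in Control, 44.1 to 47.7 CPM in IgE+BSA and 36.8 to 43.3 CPM in luteolin, with 0.71, edgeR adjusted p = 0.154 for IgE+BSA against Control and -0.19, edgeR adjusted p = 0.0606 for luteolin against IgE+BSA.

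The comparison of IgE+BSA with Control asks whether stimulation moved these genes. With the 3 Control libraries, 1 member was higher (Cdkn1a) and 1 was lower (Ube2c) of 45 tested, against 2.25% higher, 1.02% lower and 3.27% in either direction among all genes. Groups did not overlap in 15 members, against 28.7% of all genes. The median over the 39 mitotic genes was -0.09 on the log2 scale, beside 0.02 over all genes, and 30 of 45 intervals lay within 1.5-fold. Both calls were lost when any library other than Control replicate 1 was left out. Without Control replicate 1, 2 members were higher and 19 lower, or 21 in all, against 22.6% higher, 22.4% lower and 45.0% in either direction among all genes. Of the mitotic genes 18 were lower, among them Cenpa (-0.99 ± 0.0902 (SE), edgeR adjusted p = 1.2e-06), Cdc25c (-0.87), Cdc25b (-0.86), Ccnb2 (-0.78) and Cenpf (-0.72), and 1 was higher, Mybl2 (0.93 ± 0.112 (SE), edgeR adjusted p = 1.85e-05). These 5 lower genes and Mybl2 were chosen after their values were seen.

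With Control replicate 1 as the only Control, 10 members were higher and 13 lower, or 23 in all, against 23.1% higher, 19.2% lower and 42.3% in either direction among all genes. Among the mitotic genes 8 were higher and 10 lower. For Anln the log2 fold change was 0.48, against -0.23 without Control replicate 1. For Cenpe the corresponding values were 0.73 and -0.21. For Hmmr they were 0.50 and -0.29, and for Cenpf 0.29 and -0.72. Kif11 and Prc1 also passed the test with opposite signs under these choices of Control, and the genes named for this were chosen after their values were seen. Ube2c was lower under both (-0.53 and -0.73), as were Ccnb2, Birc5, Kif2c and Pttg1. The mitotic genes called with replicate 1 as the only Control but not without it were Cdk1, Plk1, Aurka, Incenp and Cdca8, which were lower, and Ect2 and Foxm1, which were higher. The neutrophil and progenitor, mast cell, eosinophil, basophil, erythroid or megakaryocyte and stromal marker sums moved with this split of the Control libraries, and their part in the differences was not tested.

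**Figure D5:**
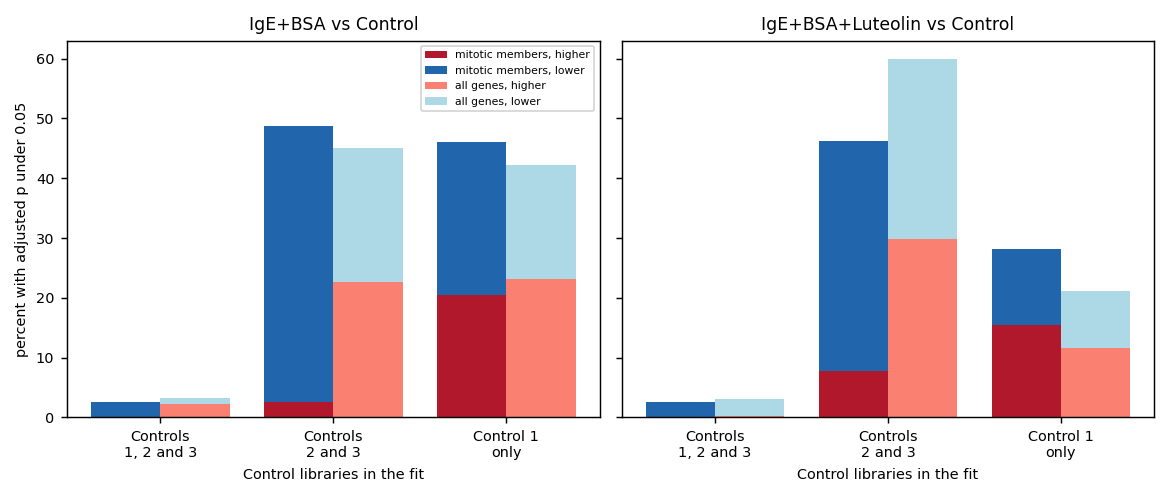
Percent of the 39 mitotic and G2-M genes and of all 11560 genes with an adjusted p under 0.05 against Control, by the Control libraries in the fit, with higher and lower genes stacked. Without Control replicate 1 the mitotic calls were 46.2% lower and 2.56% higher for IgE+BSA, beside 22.4% and 22.6% of all genes. With replicate 1 alone they were 25.6% lower and 20.5% higher, beside 19.2% and 23.1%.

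The comparison of IgE+BSA+Luteolin with Control asks where the members stood after both treatments. With the 3 Control libraries, 0 members were higher and 2 were lower (Cdc20 and Cdkn1b) by edgeR, against 0.285% higher, 2.75% lower and 3.04% in either direction among all genes. At an unadjusted p under 0.05 there were 8 members, against 22.9% of all genes, and DESeq2 called 6, against 11.9%. Groups did not overlap in 11 members, against 28.5% of all genes, and 29 of 45 intervals lay within 1.5-fold. The median over the mitotic genes was -0.08 on the log2 scale, beside 0.01 over all genes. Both calls were lost when any library other than Control replicate 1 was left out, and that of Cdc20 also with no filter on low counts (edgeR adjusted p = 0.0907). Without Control replicate 1, 4 members were higher and 17 lower, or 21 in all, against 29.9% higher, 30.1% lower and 60.0% in either direction among all genes. With replicate 1 as the only Control 7 were higher and 8 lower, or 15 in all, against 11.6% higher, 9.55% lower and 21.2% in either direction. Cdk1 passed the test with opposite signs, at 0.30, edgeR adjusted p = 0.00268 without replicate 1 and -0.31, edgeR adjusted p = 0.0201 with it alone, and Cenpe, Cenpf, Hmmr and Prc1 passed it as lower without replicate 1 and as higher with it alone. Cdc20 was lower under each choice, at -0.54, -0.55 and -0.51 on the log2 scale, and so was Cdkn1b, at -1.48, -1.74 and -0.77.

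A single test for any difference among the 3 groups, fitted on all 9 libraries, called 9 of the 45 members, against 16.3% of all genes. These were Ube2c, Cdkn1b, Cdc20, Cdkn1a, Kif2c, Cenpa, Ccnb2, Cdc25c and Cdkn2d, of which 6 are mitotic genes. The edgeR adjusted p was 0.000625 for Cdkn1a, 0.00418 for Ube2c and 0.00428 for Cdkn1b. The test called 24 members without Control replicate 1, against 69.2% of all genes, and 27 with replicate 1 as the only Control, against 54.7%. Without any other library it called 4, beside 7.85% to 11.1% of all genes.

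Other genes of the cell cycle, 173 in 8 lists by textbook role, were counted beside the members, and 172 of them were tested. In IgE+BSA+Luteolin against IgE+BSA, 33 were higher and 43 lower, or 76 in all, against 18.1% higher, 21.9% lower and 40.0% in either direction among all genes, which is also the background of the counts by list in this comparison. Among 22 p53 target genes, to which Cdkn1a also belongs, 12 were lower and 2 higher (Bax and Sesn1, named after their values were seen). Plk3, a stress and immediate early kinase, was at 281, 155 and 145 CPM in Control, 1028, 1059 and 1120.3 CPM in IgE+BSA and 199, 194 and 234 CPM in luteolin, a log2 fold change of 2.46 ± 0.27, edgeR adjusted p = 0.00455 with stimulation and -2.35 ± 0.0706, edgeR adjusted p = 5.64e-14 with luteolin. Btg2, an antiproliferative immediate early gene, was at 28.8, 36.8 and 35.9 CPM, 109, 112 and 114 CPM and 29.5, 26.97 and 33.3 CPM in the same order. Both were higher in IgE+BSA than in any library of the other groups. Plk2 and Pmaip1, the latter encoding the death protein NOXA, fell with luteolin, with log2 fold changes of -2.82 and -2.51. In IgE+BSA against Control, 5 p53 targets rose (Plk3, Btg2, Plk2, Perp and Sesn2, the last named after its values were seen), and 0 fell, against 2.25% higher and 1.02% lower among all genes. Of the 22, 8 were higher and 7 lower without Control replicate 1, against 22.6% and 22.4% of all genes, and with it as the only Control 12 were higher and 3 lower, against 23.1% and 19.2%, with Bbc3 and Sesn1 lower under both. The log2 fold changes of Plk3, Btg2, Plk2 and Perp were 2.79, 1.57, 1.07 and 1.25 without Control replicate 1 and 1.91, 1.93, 1.74 and 0.77 with it as the only Control. Bbc3, encoding the death protein PUMA, was lower in luteolin than in Control (-2.70 ± 0.245, edgeR adjusted p = 0.00615).

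Wee1, the kinase that holds CDK1 inactive, was at 15.4, 23.97 and 20.4 CPM in Control, 53.03, 41.97 and 51.5 CPM in IgE+BSA and 13.7, 15.5 and 16.9 CPM in luteolin. It rose with stimulation (1.30 ± 0.182, edgeR adjusted p = 0.0127) and fell with luteolin (-1.67 ± 0.103, edgeR adjusted p = 8.38e-10), and among the 16 genes of G2 entry control 6 were higher and 2 lower with luteolin. The INK4 inhibitor Cdkn2b fell with luteolin against IgE+BSA (-1.98 ± 0.162, edgeR adjusted p = 4.44e-08) and against Control (-1.51 ± 0.207, edgeR adjusted p = 0.016), with mean levels of 15.7 CPM in IgE+BSA, 11.3 CPM in Control and 3.95 CPM in luteolin. In its list of 25 tested G1 and E2F genes, 4 were higher and 6 lower with luteolin. Of 18 APC/C and separase genes, 10 rose with luteolin (Anapc7, 0.45 ± 0.0828, edgeR adjusted p = 0.000463) and 3 fell, among them Fbxo5, which encodes the APC/C inhibitor EMI1 (-0.60 ± 0.0873, edgeR adjusted p = 4.63e-05). Of 34 other spindle and cytokinesis genes 4 rose and 10 fell, with Fam83d (-1.25 ± 0.203, edgeR adjusted p = 0.000142) and Stil (-0.92 ± 0.084, edgeR adjusted p = 1.75e-07) changed the most. Of 28 other kinetochore genes 6 rose and 2 fell, led by Zwint (-0.62 ± 0.059, edgeR adjusted p = 3.35e-07), and of 19 cohesin and condensin genes 1 rose and 4 fell. Of 10 regulators of p27 and quiescence, 4 fell (Btg1, Ccng2, Txnip and Foxo4), with Btg1 at -1.22 ± 0.0523, edgeR adjusted p = 5.46e-12. In IgE+BSA against Control 7 of the 172 genes rose and 1 fell, against 2.25% higher and 1.02% lower among all genes. In luteolin against Control 0 rose and 6 fell by edgeR, against 0.285% higher and 2.75% lower, with 34 at an unadjusted p under 0.05, against 22.9% of all genes, and 21 called by DESeq2, against 11.9%. When a library other than Control replicate 1 was left out, 2 to 4 genes were called in the former comparison, beside 0.779% to 1.19% of all genes, and 0 to 2 in the latter, beside 0.0173% to 0.407%. The comparisons share libraries, so their values are set side by side and are not independent.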

How the data were processed

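RNA was measured in 9 BMMC libraries in 3 groups, assigned by their labels. The authors prepared stranded mRNA libraries, cleaned reads with HTStream, and aligned them with STAR 2.7.0f to the mm10 build. The values they deposited are read counts of Ensembl genes, not normalized. The strand setting of the counting and the annotation release are not given in the sources used here, so counts of genes that overlap on opposite strands are uncertain. Gene names, positions and exon lengths were taken from GENCODE on GRCm38.

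Counts were tested in R 4.3.3 by edgeR 4.0.16 (quasi-likelihood, TMM factors, two-sided) on the 6 libraries of each comparison, for genes with a median CPM above 1, with Benjamini-Hochberg adjustment over all of them and a threshold of 0.05. A test with all 9 libraries covered any group difference. Alternatives used DESeq2 1.42.0, limma 3.58.1, other scalings, filters and libraries, the replicate block, thinning, gene length and each replicate left out. The script was tested on simulated data. No replicates agreed within sampling noise (chi-square per degree of freedom from 3.83 up).

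Members, lists and tests were chosen with earlier results of these data known. Values per library are given for D cyclins, CDK inhibitors, members past the threshold whose groups do not overlap, and the member with the highest level per exon length in each role. At most 4 genes per other list and comparison are named, by the largest change past the threshold, beside those said to be chosen later. Promoter sequences are from RefSeq (GRCm38.p6), and members not in that table are Cdc25c, Ccnd1, Ccna2, Kif20a, Foxm1, Ccnd2, Tpx2, Incenp and Aurkb.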

Additional observations from a re-analysis of the deposited data

How the results depend on the processing

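Whether replicate numbers pair the libraries was not settled by correlations of their deviations from the group means. Same-numbered libraries of IgE+BSA and IgE+BSA+Luteolin correlated at -0.02 to 0.28 (mean 0.14), and differently numbered ones at -0.28 to 0.15 (mean -0.07). For IgE+BSA and Control the values were -0.26 to 0.24 (mean -0.02) and -0.26 to 0.28 (mean 0.01). For IgE+BSA+Luteolin and Control they were -0.12 to 0.31 (mean 0.12) and -0.30 to 0.22 (mean -0.07). With the replicate number as a block, 0 members and 5 context genes were called in IgE+BSA against Control, 21 members in luteolin against IgE+BSA, 0 members in luteolin against Control, and 5 members in the test over 3 groups. In IgE+BSA against Control, the 2 members called became 7 with DESeq2, 4 with library size alone, 6 with all 9 libraries in one fit, 23 with Control replicate 1 as the only Control, and 0 to 21 with a library left out, and the 8 context genes became 26 with DESeq2, 23 with all 9 libraries, 89 with replicate 1 as the only Control and 2 to 81 with a library left out. In luteolin against IgE+BSA, the 16 members became 25 with upper-quartile factors, 26 with the length correction, 1 with all 9 libraries and 11 to 20 with a library left out, and the 76 context genes became 22 with all 9 libraries and 45 to 85 with a library left out, the lowest of each without luteolin replicate 1. In luteolin against Control, the 2 members became 6 with DESeq2 and with all 9 libraries, 15 with replicate 1 as the only Control and 0 to 21 with a library left out, and the 6 context genes became 21 with DESeq2, 13 with no filter, 20 with all 9 libraries, 10 with the length correction, 46 with replicate 1 as the only Control and 0 to 104 with a library left out. The 9 members of the test over 3 groups became 14 with library size alone, 27 with replicate 1 as the only Control and 4 to 24 with a library left out. Among the fits that left out 1 library, the highest count in both comparisons with Control and in the test over 3 groups came without Control replicate 1. The share of all genes called moved under the same settings. In IgE+BSA against Control it went from 3.27% to 10.6% with DESeq2, 4.05% with library size alone, 9.56% with all 9 libraries, 42.3% with replicate 1 as the only Control, 1.25% with the block and 0.779% to 45.0% with a library left out. In luteolin against IgE+BSA it went from 40.0% to 45.7% with upper-quartile factors, 45.4% with the length correction, 9.46% with all 9 libraries, 48.3% with the block and 28.0% to 44.0% with a library left out. In luteolin against Control it went from 3.04% to 11.9% with DESeq2, 10.8% with all 9 libraries, 3.65% with no filter, 5.16% with the length correction, 21.2% with replicate 1 as the only Control, 1.83% with the block and 0.0173% to 60.0% with a library left out. In the test over 3 groups it went from 16.3% to 22.2% with library size alone, 54.7% with replicate 1 as the only Control, 13.5% with the block and 7.85% to 69.2% with a library left out. The cause of these changes was not tested. Signs that changed with calls under both choices of Control are given with those comparisons. The following changes of sign concern Cdkn2c, Ccnd2 and Ccnd3, with no call under the setting named. Changes of sign of other members under other scalings are not listed. With no filter Cdkn2c was at 0.0092 in IgE+BSA against Control and 0.0078 in luteolin against Control. In luteolin against IgE+BSA it was at 0.065 with upper-quartile factors, 0.10 with library size, 0.0076 with no filter, 0.018 with the length correction and -0.045 to 0.038 with a library left out, and Ccnd2 was at 0.022 with library size and 0.10 with the length correction. Ccnd3 was at -0.13 to 0.029 in IgE+BSA against Control with a library left out, the highest without Control replicate 1. Depth limits Ccnd1, at 70 counts in all.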
